A study of Mus musculus with 11 samples.

Results

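The neutrophil granule protein genes are 10 genes of the 37224 gene rows in the table: Mpo, Elane, Prtn3 and Ctsg of the primary granules, Ngp, Camp, Ltf and Lcn2 of the secondary granules, and S100a8 and S100a9, whose proteins fill the cytosol of maturing neutrophils. They were chosen by name, and each symbol stood on 1 row. RNA-seq was used to compare mouse T cell acute lymphoblastic leukaemia (T-ALL) from Utx knockout progenitors (Utx-/Y) with that from Utx wild-type progenitors (Utx+/+ or Utx+/Y), both on the C57/BL6 background. Utx, listed as Kdm6a, is a histone H3 lysine 27 demethylase. In both groups cKit haematopoietic progenitors were transduced in vitro with a retrovirus expressing Notch1-IC, the activated intracellular part of Notch1, and were injected intravenously into recipient mice. The labels list 5 knockout samples, 2 from bone marrow and 3 from spleen, and 6 wild-type samples, 2 from bone marrow and 4 from spleen, reruns included. The deposited table holds 1 pooled read count per gene and genotype, 106445530 counts in the knockout pool, called UTXKO here, and 108015222 in the wild-type pool, called UTXWT.

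Granule proteins are made in waves as a myeloid progenitor becomes a neutrophil. Promyelocytes make myeloperoxidase and the serine proteases of the primary (azurophil) granules, and later myelocytes and metamyelocytes make the contents of the secondary (specific) granules. S100a8 and S100a9 transcripts become abundant late and stay so in mature cells. Factors of the C/EBP family and PU.1 drive many of these genes, which are not part of the normal T cell programme. In bone marrow and spleen their RNA is usually taken as a sign of host granulocytes and their precursors.

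No spread between tumours can be computed from pooled counts, so no test was made. A pool also does not show whether 1 tumour or all of them gave a gene's counts. Without the reruns, each genotype lists 1 marrow sample and 3 spleen samples. The reruns are 1 marrow sample in the knockout list, and 1 marrow and 1 spleen sample in the wild-type list. With them, marrow and spleen make up different parts of the sample lists of the genotypes. The sources used here do not say which libraries entered each pool. The knockout label names Utx-/Y only, while the wild-type label allows Utx+/+ or Utx+/Y. The sex of the progenitor donors may therefore differ between the pools. The intervals printed here are exact 95% Clopper-Pearson intervals, which cover counting error only. A call of higher or lower in the UTXKO pool needed a sum of at least 100 counts over both pools, a depth-scaled difference of at least 2-fold and an interval that excluded no difference. Kdm6a had 1115 counts in the UTXKO pool against 6299 in the UTXWT pool, so that its log2 ratio was -2.48 (-2.57 to -2.38). Genes that mark T cells were present, as the sample label says: all 14 genes of a T cell list had counts. Together they reached 4901 CPM (counts per 1000000 of the gene total) in the UTXKO pool and 5788 CPM in the UTXWT pool. Notch1, of which the retrovirus expresses a part, is on this list, at 691 CPM in the UTXKO pool and 805 CPM in the UTXWT pool.

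All 10 granule genes were well counted, with combined counts of 3134 (Ctsg) to 150724 (S100a9). Together they took 0.254% of the knockout counts and 0.209% of the wild-type counts, a log2 ratio of 0.28 (0.27 to 0.29). Only Mpo was called higher and none was called lower, against 11.2% of the 13833 genes with at least 100 counts called higher and 5.36% called lower. A count of 1 in 10 is close to that background. Among the 7201 genes with at least as many counts as Ctsg, the least counted of the 10, 4.21% were called higher and 1.65% lower, with a median log2 ratio of -0.12. Scaled by total depth, the ratios of 9 of the 10 genes had intervals above 0 and that of Ngp an interval below 0. Without a fold minimum, 37% of all genes had intervals above 0 and 46.7% below. The median log2 ratio of the 10 genes was 0.48, against -0.07 over all genes with at least 100 counts. In bulk RNA, fewer cells of a type and less RNA per cell cannot be told apart.

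**Figure D1:**
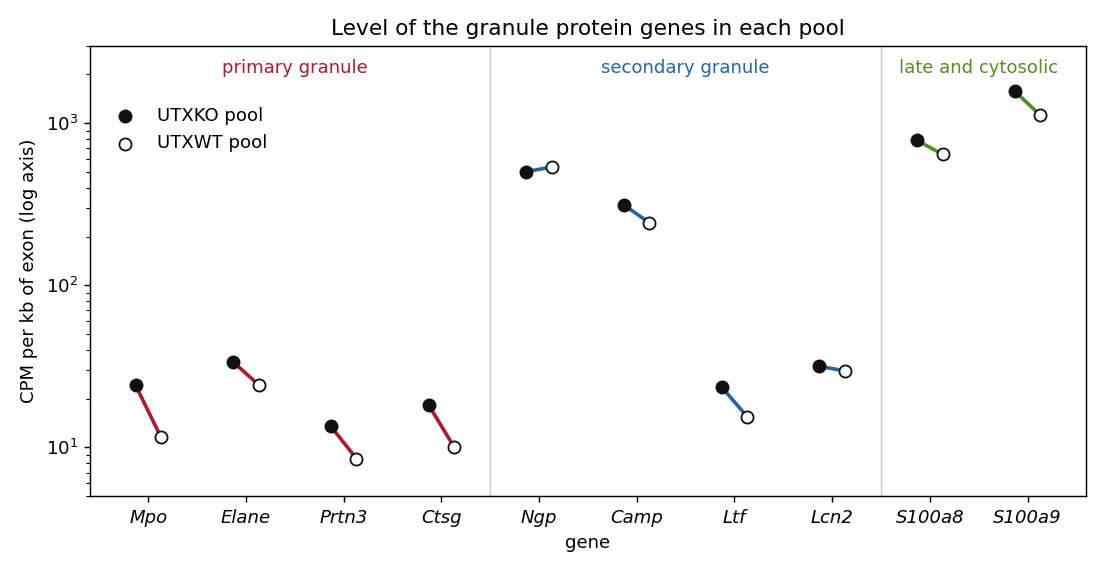
Level of each granule protein gene in the UTXKO pool (filled) and the UTXWT pool (open), as CPM per kilobase of exon on a log axis, with 1 pooled value per point and no error bar because there are no replicates. S100a9 and S100a8 stood highest in both pools, and Ngp is the gene whose knockout value lay below its wild-type value.

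Of the primary granule genes, Mpo, Ctsg and Prtn3 had the 3 largest ratios of all 10 genes, and Elane came sixth. Mpo, the haem enzyme that turns hydrogen peroxide and chloride into hypochlorous acid (ENSMUSG00000009350, chromosome 11, 87793581 to 87804413, plus strand, GRCm38 coordinates of GENCODE M21 here and for the genes that follow), had 8826 counts in the UTXKO pool against 4278 in the UTXWT pool. These are 82.9 CPM in the UTXKO pool and 39.6 CPM in the UTXWT pool, a log2 ratio of 1.07 (1.01 to 1.12). The lower end of this interval lay just above the 2-fold line, so the call rests on a narrow margin. An antisense gene, Gm11505, overlaps Mpo on the other strand and had 1740 counts in the UTXKO pool against 705 in the UTXWT pool, a log2 ratio of 1.32 (1.20 to 1.45). The sources used here do not name the strand setting of the counting step, so reads of Mpo and Gm11505 cannot be told apart with certainty.

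Ctsg encodes cathepsin G, a chymotrypsin-like serine protease (ENSMUSG00000040314, chromosome 14, 56099881 to 56102574, minus strand). It had 2010 counts in the UTXKO pool against 1124 in the UTXWT pool, or 18.9 CPM against 10.4 CPM. Its log2 ratio of 0.86 (0.75 to 0.97) stayed under the 2-fold minimum. Prtn3, which encodes proteinase 3 (ENSMUSG00000057729, chromosome 10, 79874476 to 79883174, plus strand), had 2484 counts in the UTXKO pool against 1598 in the UTXWT pool, a log2 ratio of 0.66 (0.57 to 0.75). It overlaps Plppr3 on the other strand, described with its neighbours. Elane, which encodes neutrophil elastase (ENSMUSG00000020125, chromosome 10, 79886247 to 79888215, plus strand), had 3526 counts in the UTXKO pool against 2585 in the UTXWT pool, a log2 ratio of 0.47 (0.40 to 0.54). The 4 primary granule genes thus had the same sign but differed among themselves by more than counting error. Mpo made up 71.5% (70.6 to 72.2) of the joint counts of Mpo and Elane in the UTXKO pool, against 62.3% (61.2 to 63.5) in the UTXWT pool. That share does not depend on how depth is scaled.

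The promoters of these 4 genes were searched for the core letters of a PU.1 site, GAGGAA, on both strands, in the 250 bases before the RefSeq start (GRCm38.p6). All 4 held a match, against 23.4% of 32536 promoter windows of that length. They are shown because this class had the largest summed ratio, and the capitals mark the matched letters:
Mpo: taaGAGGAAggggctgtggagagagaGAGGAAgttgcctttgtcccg
Elane: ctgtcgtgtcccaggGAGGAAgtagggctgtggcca
Prtn3: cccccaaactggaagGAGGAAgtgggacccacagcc
Ctsg: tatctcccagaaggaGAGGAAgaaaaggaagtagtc
The stretches lie at chr11:87793534-87793580 (plus strand), chr10:79886212-79886247 (plus strand), chr10:79879557-79879592 (plus strand) and chr14:56102770-56102805 (minus strand), in the order of the lines, each read 5′ to 3′ along its gene. Mpo held 2 matches and the others 1 each. The GENCODE spans given here for Mpo, Elane and Prtn3 begin before their RefSeq starts, and the Prtn3 stretch lies inside its span. Among the other members Ltf, Lcn2 and S100a8 also held a match, so 7 of the 10 did.

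The secondary granule genes differed widely in ratio, and the most abundant of them was the lowest. Ngp, which encodes a granule protein related to the cathelicidins (ENSMUSG00000032484, chromosome 9, 110419747 to 110423012, plus strand), had 65499 counts in the UTXKO pool against 70865 in the UTXWT pool. These are 615 CPM in the UTXKO pool and 656 CPM in the UTXWT pool, a log2 ratio of -0.09 (-0.11 to -0.08), close to the median of all genes. Under TMM scaling its log2 ratio was -0.01, so the interval below 0 depends on the scaling. Lcn2 encodes lipocalin 2, which binds bacterial iron carriers (ENSMUSG00000026822, chromosome 2, 32384633 to 32388252, minus strand). It had 8839 counts in the UTXKO pool against 8409 in the UTXWT pool, a log2 ratio of 0.09 (0.05 to 0.14), or 0.17 under TMM scaling. These 2 genes were nearly level between the pools.

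Camp and Ltf stood higher. Camp encodes the cathelicidin antimicrobial peptide (ENSMUSG00000038357, chromosome 9, 109847379 to 109849617, minus strand) and had 25281 counts in the UTXKO pool against 19883 in the UTXWT pool, a log2 ratio of 0.37 (0.34 to 0.39). Ltf, which encodes the iron-binding protein lactoferrin (ENSMUSG00000032496, chromosome 9, 111019271 to 111042767, plus strand), had 8650 counts in the UTXKO pool against 5769 in the UTXWT pool, a log2 ratio of 0.61 (0.56 to 0.65). The ratio of Ltf lay above that of the primary granule gene Elane and its interval overlapped that of Prtn3, so the ranges of the classes overlapped. Within the pools, Ltf made up 49.5% (48.7 to 50.2) of the joint counts of Ltf and Lcn2 in the UTXKO pool and 40.7% (39.9 to 41.5) in the UTXWT pool. Camp made up 27.8% (27.6 to 28.1) of the joint counts of Camp and Ngp in the UTXKO pool and 21.9% (21.6 to 22.2) in the UTXWT pool.

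A second search used the letters of a C/EBP site, TTNNGNAA, where N is any base, on both strands of the same windows. None of the 4 primary granule genes held a match, 3 of the 4 secondary granule genes did (Ngp 3 matches, Ltf 2 and Lcn2 1), and so did S100a8 (1) and S100a9 (2). Over all windows 36.8% held one, and no match overlapped a match of the PU.1 letters in these 10 genes. The 120 bases before the start of Ngp, with the lowest ratio, and of Ltf, with the highest of its class, are shown with the matches in capitals:
Ngp: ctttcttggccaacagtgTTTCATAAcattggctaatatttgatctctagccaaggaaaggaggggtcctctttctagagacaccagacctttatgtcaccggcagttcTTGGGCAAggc
Ltf: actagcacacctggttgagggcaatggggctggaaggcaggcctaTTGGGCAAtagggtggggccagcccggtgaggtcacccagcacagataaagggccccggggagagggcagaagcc
These are chr9:110419688-110419807 and chr9:111019172-111019291, both on the plus strand. The GENCODE spans given here for Ngp and Ltf begin before these RefSeq starts, so part of each stretch lies inside the span. Genes of the same class with the lowest and the highest ratio thus both held the C/EBP letters. The letters of a Myb site, AACNG, and of a TATA box, TATAAA, were also searched. Myb letters matched in 10 of the 10 genes, against 74.1% of all windows, and TATA letters in 2 of the 10, against 12.3%. A match describes the sequence and shows no binding, and a window without a match says only that the letters are not there.

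S100a8 and S100a9 encode the subunits of calprotectin, a calcium-binding pair that withholds zinc and manganese from microbes. S100a9 (ENSMUSG00000056071, chromosome 3, 90692632 to 90695721, minus strand) had 87600 counts in the UTXKO pool against 63124 in the UTXWT pool. These are 823 CPM in the UTXKO pool and 584 CPM in the UTXWT pool, a log2 ratio of 0.49 (0.48 to 0.51). S100a8 (ENSMUSG00000056054, chromosome 3, 90668978 to 90670035, plus strand) had 57900 counts in the UTXKO pool against 48200 in the UTXWT pool, a log2 ratio of 0.29 (0.27 to 0.30). By count, S100a9 ranked 76 among all genes in the UTXKO pool and 124 in the UTXWT pool. Although their proteins work as a pair, S100a9 made up 60.2% (60.0 to 60.5) of their joint counts in the UTXKO pool and 56.7% (56.4 to 57.0) in the UTXWT pool.

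**Figure D2:**
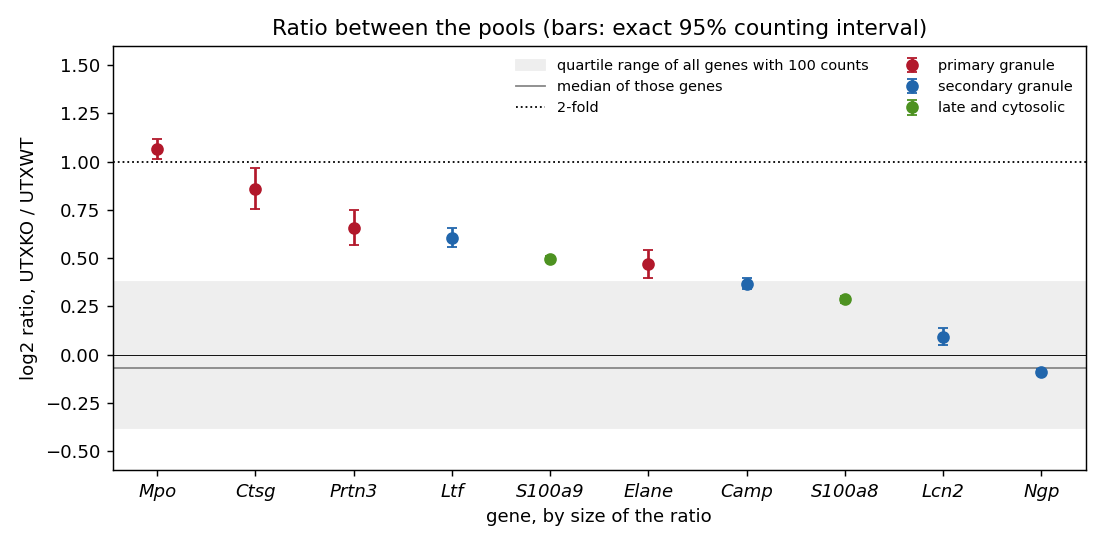
Log2 ratio of the UTXKO over the UTXWT pool for each granule protein gene, in order of size, with exact 95% counting intervals as bars (hidden by the point where short). The grey band and line give the quartile range and the median of all genes with at least 100 counts. Mpo, at 1.07, lies above the dotted 2-fold line, and Ngp, at -0.09, is the only point below 0.

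Ordered by log2 ratio, the genes ran Mpo, Ctsg, Prtn3, Ltf, S100a9, Elane, Camp, S100a8, Lcn2 and Ngp. Neighbours whose intervals overlapped were Prtn3 and Ltf, and S100a9 and Elane. In the authors' deposited table, whose DEGseq test rests on the same pooled counts and so holds no tumour-to-tumour error, the normalized log2 fold changes were 1.07 for Mpo and -0.09 for Ngp. With a Benjamini-Hochberg q under 0.05 added to the 2-fold and 100-count limits, the authors' deposited table also called 1 of the 10 genes higher, Mpo, and none lower, against 11.2% of all genes higher and 5.39% lower. The largest Benjamini-Hochberg q of the 10 genes in the authors' deposited table was 4.78e-05, for Lcn2.

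Compared as classes, primary granule genes stood further above their wild-type level than secondary granule genes or the S100 pair. Summed over the class, the 4 primary granule genes had 16846 counts in the UTXKO pool against 9585 in the UTXWT pool, a log2 ratio of 0.83 (0.80 to 0.87). The 4 secondary granule genes had 108269 counts in the UTXKO pool against 104926 in the UTXWT pool, a log2 ratio of 0.07 (0.05 to 0.08), or 0.15 under TMM scaling. For the S100 pair the sums were 145500 counts in the UTXKO pool and 111324 in the UTXWT pool, a log2 ratio of 0.41 (0.40 to 0.42). Medians of the member ratios kept the same order, at 0.76, 0.39 and 0.23 for primary, S100 and secondary genes. The number of genes per class is 4, 2 and 4, and the genes of a class share the same libraries, so these are descriptions of the pools. In the longer lists described later, the log2 ratios of the sums ran the other way. They were -0.11 for genes of primary granules and their makers, 0.70 for secondary and tertiary granule genes and 0.40 for late neutrophil genes. The medians of those lists were 1.04, 0.71 and 0.81.

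The gap between the classes can also be read within each pool, where depth plays no part. Primary granule genes gave 13.5% (13.3 to 13.7) of the joint primary and secondary counts in the UTXKO pool and 8.37% (8.21 to 8.53) in the UTXWT pool. A large part of this gap came from 2 genes. Without Mpo the share was 6.90% (6.75 to 7.04) in the UTXKO pool and 4.81% (4.69 to 4.94) in the UTXWT pool. Without Ngp it was 28.3% (27.9 to 28.6) in the UTXKO pool and 22.0% (21.6 to 22.4) in the UTXWT pool. Without both, it was 15.8% (15.5 to 16.1) in the UTXKO pool and 13.5% (13.1 to 13.8) in the UTXWT pool. The class ratios themselves became 0.62 (0.57 to 0.67) for primary genes without Mpo and 0.35 (0.33 to 0.37) for secondary genes without Ngp. The direction held in each case, and the log2 difference between the pools in the primary to secondary ratio was 0.77 with all 8 genes and 0.27 without both.

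**Figure D3:**
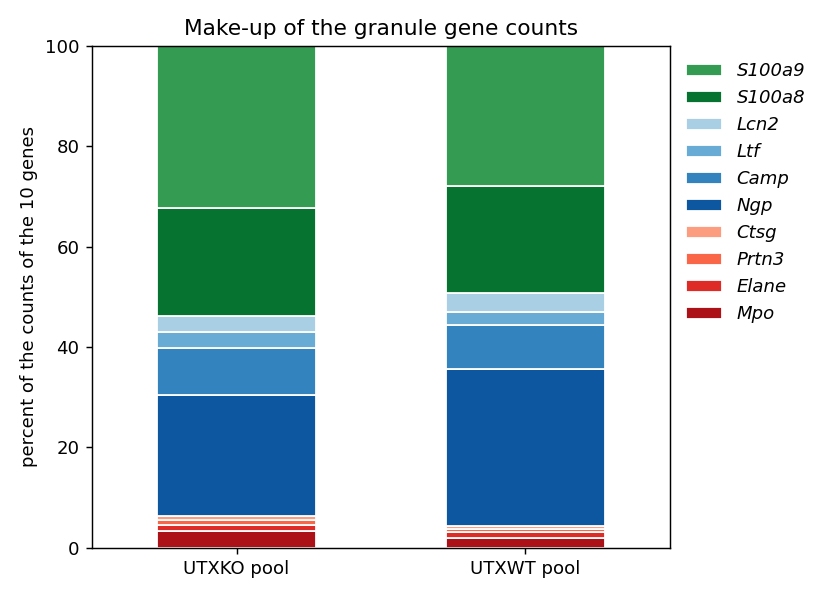
Share of each gene in the summed counts of the 10 granule protein genes, in percent, in the UTXKO pool (left) and the UTXWT pool (right). Reds are primary granule genes, blues secondary granule genes and greens the S100 pair. Ngp took 24.2% in the UTXKO pool and 31.4% in the UTXWT pool, and S100a9 took 32.4% in the UTXKO pool and 28.0% in the UTXWT pool.

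Scaled to the length of their exons, the genes fell into an abundant and a less abundant set in both pools. S100a9 reached 1577 CPM per kilobase in the UTXKO pool and 1120 in the UTXWT pool, and S100a8 reached 784 in the UTXKO pool and 643 in the UTXWT pool. Ngp stood at 504 CPM per kilobase in the UTXKO pool and 537 in the UTXWT pool, and Camp at 313 in the UTXKO pool and 243 in the UTXWT pool. The other 6 genes lay between 13.5 (Prtn3) and 33.7 (Elane) CPM per kilobase in the UTXKO pool and between 8.54 (Prtn3) and 29.7 (Lcn2) in the UTXWT pool. By exon union, S100a9, S100a8 and Ngp exceeded each of the 14 T cell genes per length in both pools, of which the highest were Tcf7 at 369 CPM per kilobase in the UTXKO pool and Thy1 at 321 in the UTXWT pool. With the longest transcript as length, Lcn2 was at 60.4 CPM per kilobase in the UTXKO pool and 56.7 in the UTXWT pool, and Prtn3 was at 22.8 in the UTXKO pool and 14.4 in the UTXWT pool. By that length Thy1 was at 553 CPM per kilobase in the UTXWT pool, above Ngp at 537. Places among the 6 less abundant genes, and that of Ngp beside Thy1, therefore depend on the transcript taken as length.

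Several of the genes lie side by side. Prtn3 and Elane are adjacent protein-coding genes, 3072 bp apart, and their log2 ratios were 0.66 and 0.47. On the far side of Elane, Cfd, which encodes complement factor D, had 10 counts in the UTXKO pool against 27 in the UTXWT pool. Plppr3 overlaps the start of the annotated span of Prtn3 on the other strand and stood at -0.33 (-0.39 to -0.27), on 4296 counts in the UTXKO pool against 5484 in the UTXWT pool. With no strand setting named, reads of Prtn3 and Plppr3 in the overlap cannot be told apart with certainty either. S100a8 and S100a9 are neighbours 22596 bp apart, and the gene on the other side of S100a8, S100a7a, had no count in either pool. Ngp, Camp and Ltf all lie on chromosome 9 but are not adjacent. Of their neighbours with at least 100 counts, Ccrl2 beside Ltf had the largest ratio, 0.89 (0.77 to 1.02). Lpo, the peroxidase gene next to Mpo, had no count in either pool. Next to Ctsg stands Mcpt8, a protease gene of basophils, which had 800 counts in the UTXKO pool against 60 in the UTXWT pool, a log2 ratio of 3.75 (3.38 to 4.16).

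Other genes of the granule pathway were read from lists chosen with earlier results of these data known. Calls in each list stand beside 11.2% of all genes with at least 100 counts called higher and 5.36% called lower. Among genes of primary granules and their makers, 6 had at least 100 counts, 4 were called higher, none lower and 2 neither, with a median log2 ratio of 1.04. The called genes were Lyz2, which encodes lysozyme (1.59), Ms4a3, a marker of granulocyte and monocyte progenitors (1.14), Serpinb1a, an inhibitor of the granule proteases (1.04), and Ctsc, the protease that activates them (1.03). Srgn, which encodes the proteoglycan that packs granule proteases and is also made by other blood cells, was at -0.48 (-0.50 to -0.45). Prss57, a serine protease of the same granules, was at -0.78 (-0.85 to -0.70), on 2340 counts in the UTXKO pool against 4071 in the UTXWT pool. Its sign is opposite to that of Elane and Prtn3, its relatives. Bpi, which encodes a protein that kills Gram-negative bacteria, had 0 counts in the UTXKO pool against 82 in the UTXWT pool. With 3 counts as the limit of a count of 0, this is 26.9-fold lower, leaving out the counting error of the 82. The exact interval of its log2 ratio ended at -4.42. Its combined count was under the 100 needed for a call. The sum over this list had the opposite sign to its median, at -0.11, because Srgn gave most of the counts.

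Genes of secondary and tertiary granules had a median of 0.71 over 17 genes with at least 100 counts. Of these, 7 were called higher, 1 lower and 9 neither, against 11.2% of all genes called higher and 5.36% lower. The most abundant, Chi3l3, which encodes a chitinase-like protein of mouse myeloid cells, was higher at 1.02 (0.99 to 1.06), on 23603 counts in the UTXKO pool against 11782 in the UTXWT pool. Arg1 (1.84), the integrin gene Itgam (1.79) and the metal transporter gene Slc11a1 (1.76) had the largest ratios, and macrophages express these 3 genes as well. Olfm4, an olfactomedin of a subset of neutrophils, was the gene called lower, at -2.24 (-2.50 to -2.00), on 158 counts in the UTXKO pool against 761 in the UTXWT pool. Cd177, a neutrophil surface protein gene, was at 0.07 and Lrg1 at 0.36.

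Late neutrophil genes had a median of 0.81 over 18 genes. Of these, 8 were called higher, 1 lower and 9 neither, against 11.2% of all genes called higher and 5.36% lower. Retnlg, a resistin-like gene, was higher at 1.01 (0.93 to 1.08), on 4298 counts in the UTXKO pool against 2170 in the UTXWT pool. Il1b (1.87), the formyl peptide receptor gene Fpr2 (1.55) and Asprv1 (1.35) had the largest ratios. Padi4, which encodes the enzyme that citrullinates histones in neutrophils, was lower at -1.09 (-1.31 to -0.88), and the protease inhibitor gene Slpi was at -0.33. Alox5ap was at -0.03 and Ifitm6, with the largest combined count of the list, at 0.11. Ly6g, the gene of the usual neutrophil surface marker, had 50 counts in the UTXKO pool against 33 in the UTXWT pool, too few for a call.

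Regulators of granulocyte genes had a median of 0.34 over 9 genes, with Cebpd (1.87, 1.59 to 2.17) and Cebpa (1.07, 0.71 to 1.44) called higher, none lower and 7 neither. Over all genes, 11.2% were called higher and 5.36% lower. Cebpe, which drives secondary granule genes, was at 0.59 (0.36 to 0.83), on 376 counts in the UTXKO pool against 253 in the UTXWT pool. Gfi1, a repressor needed for neutrophil formation that T cell progenitors also express, was at -0.66 (-0.73 to -0.59). Cebpb and Irf8 were at -0.37 and 0.02. Myb, the most abundant of the list and also active in T-ALL, was at 0.28.

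Markers of other blood cells also differed between the pools, not all in the same direction, and their part in the ratios of the granule genes was not tested. Monocyte and macrophage genes had 12 of 15 called higher, none lower and 3 neither, against 11.2% of all genes called higher and 5.36% lower. The median of the list was 1.59, and its summed level was 452 CPM in the UTXKO pool against 159 CPM in the UTXWT pool. Every gene of that list had counts in both pools, and Ccr2, a monocyte chemokine receptor gene that some T cells also use, had the largest ratio (4.98). F13a1, which encodes a coagulation factor subunit made by monocytes, had the opposite sign at -0.93 (-1.05 to -0.81), on 864 counts in the UTXKO pool against 1666 in the UTXWT pool. Erythroid genes had 3 of 8 called higher and none lower, a median of 0.93 and a summed level of 21080 CPM in the UTXKO pool against 10467 CPM in the UTXWT pool. T cell genes had none of 14 called higher and 1 called lower, Thy1 at -1.06, with a median of -0.31. Thy1 passed the 2-fold line by a narrow margin and was not called under 3 of the 4 other scalings. All 10 granule genes had ratios above the T cell median and below the macrophage median, from -0.09 for Ngp to 1.07 for Mpo. The 4 primary ones ran from 0.47 to 1.07.

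**Figure D4:**
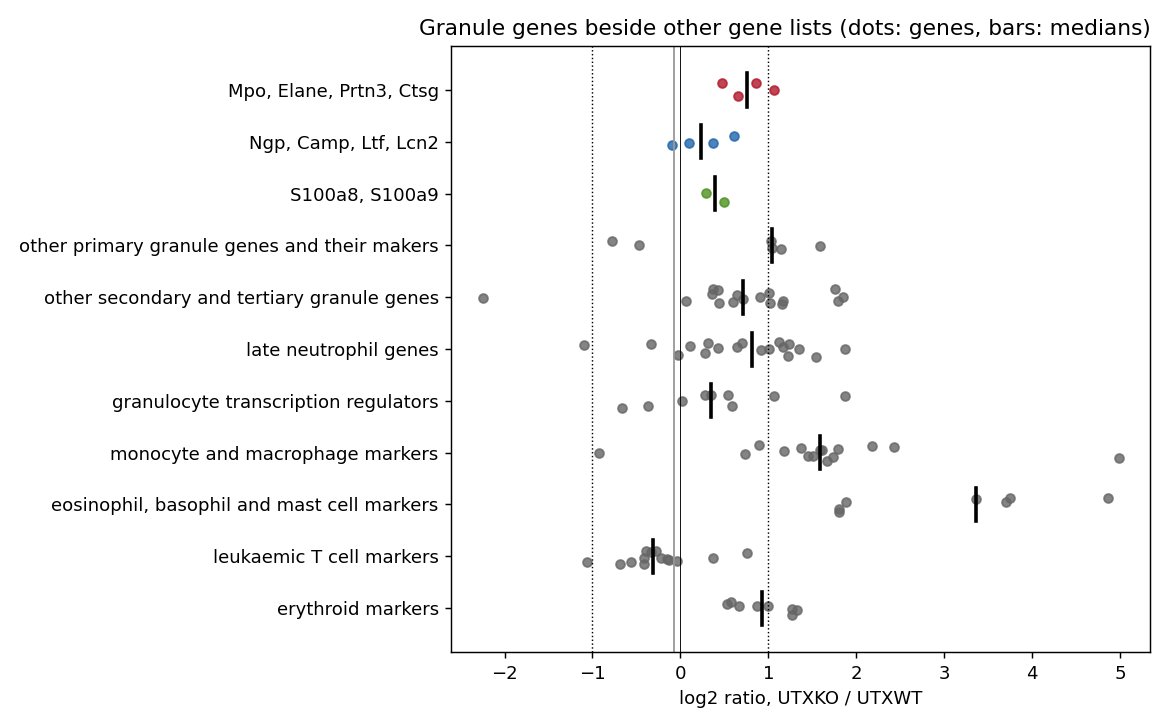
Log2 ratio of the UTXKO over the UTXWT pool for the genes with at least 100 counts of each list; each dot is a gene, each black bar the list's median, and height within a row carries no meaning. Dotted lines mark 2-fold and the grey line marks the median of all genes. The granule protein genes (upper 3 rows) span -0.09 to 1.07, while the medians of the lists below them run from -0.31 for T cell genes to 3.36 for eosinophil, basophil and mast cell genes.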

How the data were processed

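Poly(A)-selected, strand-marked libraries gave single reads 50 bases long, per the labels' protocols; the design text also allows depletion of ribosomal RNA and speaks of sorted populations, without naming the sort. CASAVA, TopHat and mm9 are named in the submitters' processing notes. The sources used here do not name the counting tool, its strand setting or the annotation.

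The 1 deposited table holds whole read counts that the authors pooled by genotype, together with log2 fold changes, a z score and p-values with q-values from the authors' DEGseq test; the score was not used. Which value column is the knockout pool (UTXKO) and which the wild-type pool (UTXWT) was read from the order of names in the table's title. Columns with per-sample values numbered 0, so no test across samples, no block and no left-out sample could be run; the planned count model was not used.

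CPM is the count per 1000000 counts of all gene rows, log2 ratios a pseudocount of 0.5 counts, and intervals the exact Clopper-Pearson method (scipy 1.17.1). Reads are not independent molecules, so intervals and the limit of 3 counts cover counting error only. At these depths a count of 0 allows up to 0.0282 CPM in the UTXKO pool and 0.0278 CPM in the UTXWT pool. Lengths are unions of GENCODE M21 exons. Calls and intervals were tested on simulated counts that carried counting error only, so that test does not cover spread between tumours. edgeR 4.0.16 gave TMM and upper quartile scaling only. Sequences and coordinates are from RefSeq and GENCODE on GRCm38, not mm9; all 10 genes matched a promoter window.

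The granule genes, the other lists and the motifs were chosen with earlier results of these data known. Of 112 list genes, 111 matched by identifier and 1 by symbol. Named genes are the 10 granule genes, Kdm6a, and from each list up to 3 highest, up to 3 lowest and the most abundant; further genes, among them Bpi, Ly6g, Retnlg and the neighbours in the genome, were named after their values were seen.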

Additional observations from a re-analysis of the deposited data

How the results depend on the processing

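No paired analysis was possible because the table holds 1 pooled count per genotype and no column carries a replicate number. For the same reason no sample could be left out. The signs of the 10 granule gene ratios held under all 5 alternatives of scaling and pseudocount (50 of 50 values), and Mpo was called higher under each scaling; the ratio of Ngp was closest to 0 and reached -0.01 with TMM and -0.0002 without mitochondrial and erythroid genes in the depth. Over all genes the median was -0.07 by total depth, against 0.01 under TMM. The summed ratios of the primary, secondary and S100 genes were 0.91, 0.15 and 0.49 with TMM, 0.90, 0.13 and 0.47 under median-of-ratios scaling, and 0.93, 0.16 and 0.50 once mitochondrial and erythroid counts were left out of the depth. Medians in place of sums gave 0.76, 0.23 and 0.39, and sums without the most abundant gene of each class gave 0.62, 0.35 and 0.29, so that the S100 pair, then S100a8 alone, came last. With Lcn2 counted among the late genes their ratio was 0.39. The primary share of primary and secondary counts was 9.32% in the UTXKO pool and 6.20% in the UTXWT pool per kilobase of exon, 15.8% and 13.5% without the most abundant gene of each class, and 14.5% and 9.03% without Lcn2. Added after seeing the data, it was 28.3% and 22.0% without Ngp, and 6.90% and 4.81% without Mpo, in the same order of pools. With a 1.5-fold minimum 4 granule genes were called higher (Mpo, Ctsg, Prtn3 and Ltf), against 18.9% of all genes (2617) called higher and 14.7% (2037) lower. Without a minimum on the combined count, 2718 genes were called higher and 1973 lower. In the other lists together, with 102 matched genes, 43 were called higher and 3 lower. Over all genes with at least 100 counts, 11.2% were called higher and 5.36% lower. For the lists the counts were 46 higher and 5 lower without the count minimum. With the 1.5-fold minimum they were 57 higher and 7 lower. Of 112 list counts under the alternatives 100 stayed within 1.5 times, 9 were larger and 3 smaller, the 3 being the call of Thy1. Depth does not limit the granule genes, whose counting intervals are narrow; the missing spread between tumours does.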

Other observations

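Genes of eosinophils, basophils and mast cells, which also store proteases and peroxidases in granules, had larger ratios than the neutrophil granule genes. All 7 genes of that list with at least 100 counts were called higher in the UTXKO pool, against 11.2% of all genes. The median log2 ratio of the 7 was 3.36. Summed over its 12 genes, the list stood at 33.1 CPM in the UTXKO pool and 4.05 CPM in the UTXWT pool, a log2 ratio of 3.03 (2.88 to 3.17). Prss34, a basophil protease gene, had 843 counts in the UTXKO pool against 29 in the UTXWT pool, a log2 ratio of 4.86 (4.35 to 5.47). The mast cell carboxypeptidase gene Cpa3 was at 3.36 and the IgE receptor gene Fcer1a at 3.70. Of the genes that mark eosinophils, those with at least 100 counts were nearer to 0, with Ccr3 at 1.81, Prg2 at 1.80 and Ear2 at 1.88, the last of which has close relatives whose reads may be shared. Epx, the eosinophil peroxidase gene, had 33 counts in the UTXKO pool against 2 in the UTXWT pool, a log2 ratio of 3.77 (2.10 to 7.17). Ear6 had 0 counts in the UTXKO pool against 12 in the UTXWT pool, and Ear1 had 1 count in the UTXKO pool and 0 in the UTXWT pool. Siglec5, listed as an eosinophil gene, had 6 counts in the UTXKO pool against 7 in the UTXWT pool. Ms4a2 had 15 counts in the UTXKO pool against 1 in the UTXWT pool. Epx, Ear6, Ear1, Siglec5 and Ms4a2 all had too few counts for a call. Whether a single tumour gave these counts cannot be read from the pools.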
